A study of Mus musculus with 10 samples.

Results

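A set of 9 transcription factors of macrophages and related myeloid cells was followed across mammary gland cell types and genotypes, namely *Spi1*, *Irf4*, *Irf5*, *Irf8*, *Maf*, *Klf4*, *Nr4a1*, *Runx1* and *Batf3*. The 9 genes were chosen by symbol from the 55487 genes counted, of which 55141 have a symbol, and each symbol matched 1 gene. The study asked how loss of C/EBPβ from macrophages changes the mammary gland. RNA was sequenced from mammary epithelial cells (MECs), purified by removing cells of other lineages, and from mammary gland macrophages, purified by binding to F4/80. All mice were 10-wk-old BALB/c females in diestrus and carried floxed *Cebpb* alleles. CebpbΔM mice also carried *Csf1r-iCre*, whereas WT mice lacked Cre, and the submitters' labels call the CebpbΔM genotype a C/EBPb knockdown. *Csf1r-iCre* acts in cells that express or once expressed CSF1R, so it is not limited to macrophages. There were 2 WT libraries (1 and 3) and 2 CebpbΔM libraries (1 and 3) of MECs, and 2 WT libraries (4 and 5) and 4 CebpbΔM libraries (4 to 7) of macrophages. Nothing in the labels says that the libraries came from separate mice, so *P*-values measure the spread between these libraries.

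PU.1, the product of *Spi1*, is an ETS-family factor that opens myeloid enhancers and is required for macrophage development. It works with interferon regulatory factors (IRFs), with RUNX1 and with C/EBP factors at many of these sites. IRF4 and IRF8 have weak DNA binding of their own and bind composite sites together with PU.1, IRF5 drives inflammatory cytokine genes, and BATF3 partners with IRF4 and IRF8 through its leucine zipper. c-MAF, KLF4 and NR4A1 are linked to resident macrophages and monocytes, and RUNX1, KLF4 and NR4A1 are also used by epithelial cells.

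The total count was 25310926 to 27008166 in the MEC libraries and 16935000 to 20174722 in the macrophage libraries. *Cebpb* itself (chromosome 2 from 167688915 to 167690418, GRCm38) was counted 13 and 15 times in macrophage WT 4 and 5 and 16, 13, 5 and 4 times in CebpbΔM 4 to 7. The genotypes overlapped at these low counts, and in MECs *Cebpb* had 25 and 28 counts in WT against 69 and 42 in CebpbΔM. Its exons share 312 bases with *Tmem189* on the opposite strand, which had 165 to 573 counts per library. The targeted gene therefore does not check the labels, and CebpbΔM below means the libraries so labelled. The summed level of 10 macrophage markers was 8294 to 9380 CPM in WT macrophages, where CPM is the count relative to library size scaled by the trimmed mean of M-values (TMM), the unit of levels here. It was 10807 to 16034 in CebpbΔM macrophages and 33.0 to 43.9 in MECs, with *Adgre1*, which encodes F4/80, at 0 in both CebpbΔM MEC libraries. The summed level of 7 luminal epithelial markers was 26764 to 35509 in MECs, 10050 to 10566 in WT macrophages and 5321 to 7509 in CebpbΔM macrophages. Basal epithelial markers (5 genes) summed to 4203 to 5685 CPM in MECs, to 983 and 617 CPM in macrophage WT 4 and 5, and to 2555, 1590.1, 1523 and 571 CPM in CebpbΔM 4 to 7. Epithelial markers were thus measured in the macrophage libraries too, the luminal ones higher in WT and the basal ones higher in 3 of the 4 CebpbΔM libraries. Endothelial markers summed to 54.2 to 77.1 CPM in MECs and to 573 to 1316 CPM in macrophages. Adipocyte markers summed to 30.5 to 33.3 CPM in MECs and to 403 to 1106 CPM in macrophages. Fibroblast markers overlapped, at 4399 to 5343 CPM in MECs and 2396 to 5173 CPM in macrophages. In bulk RNA, more cells of a type and more RNA per cell cannot be told apart.

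The promoters of the *Irf* genes are shown because these factors and PU.1 bind DNA together and their genes were all higher in macrophages than in MECs. The RefSeq promoter table (GRCm38.p6) held 9 windows for 7 of the 9 genes. *Spi1* and *Maf* had no entry. The 250 bases before the start site are printed 5′ to 3′ on the gene's strand, and capitals mark the PU.1 core GAGGAA, searched on both strands (TTCCTC where it lies on the other strand). The windows are chr13:30748983-30749232 for *Irf4*, chr6:29526375-29526624 for *Irf5* and chr8:120736108-120736357 for *Irf8*, all on the + strand.
Irf4: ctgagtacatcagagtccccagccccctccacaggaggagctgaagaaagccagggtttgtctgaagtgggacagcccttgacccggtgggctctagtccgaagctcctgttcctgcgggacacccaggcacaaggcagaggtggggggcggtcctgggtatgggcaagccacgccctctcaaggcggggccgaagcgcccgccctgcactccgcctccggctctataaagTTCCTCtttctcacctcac
Irf5: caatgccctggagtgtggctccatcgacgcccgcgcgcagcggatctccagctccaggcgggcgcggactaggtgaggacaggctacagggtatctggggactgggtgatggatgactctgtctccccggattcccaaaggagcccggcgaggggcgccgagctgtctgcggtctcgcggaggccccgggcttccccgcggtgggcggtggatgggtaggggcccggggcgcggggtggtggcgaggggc
Irf8: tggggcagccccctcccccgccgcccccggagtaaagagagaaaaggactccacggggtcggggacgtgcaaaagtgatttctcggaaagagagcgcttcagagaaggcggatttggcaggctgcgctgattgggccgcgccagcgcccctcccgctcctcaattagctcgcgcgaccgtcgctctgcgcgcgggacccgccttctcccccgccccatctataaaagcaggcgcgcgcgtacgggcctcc

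*Irf4* held the core on the opposite strand, starting 19 bases before the start site, and the printed windows of *Irf5* and *Irf8* did not hold these letters. Of the 9 windows, 3 held GAGGAA (*Irf4*, *Batf3* and 1 of the 2 *Runx1* windows), against 23.3% of all 32851 promoter windows. None of the 9 windows held the C/EBP motif TTGCNNAA, which 9.56% of all windows held, nor an IRF motif of GAAA repeated after 2 free bases (2.98%), the RUNX motif TGTGGT (14.05%), the AP-1 motif TGANTCA (6.75%) or the NR4A motif AAAGGTCA (1.34%). A match is a description of these letters and not a binding site.

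*Spi1* (ENSMUSG00000002111, chromosome 2 from 91082390 to 91115756) was the member most restricted to macrophages. It was counted 3 and 0 times in WT MECs and 1 and 0 times in CebpbΔM MECs, at or under the floor of 3 counts per library. Its level in macrophages was 28.1 and 31.1 CPM in WT 4 and 5, and 86.5, 84.5, 55.1 and 99.3 CPM in CebpbΔM 4 to 7. The WT libraries lay close together, and every CebpbΔM library was above both, with CebpbΔM 6 the lowest. Against the floor, *Spi1* was at least 243-fold higher in WT macrophages than in WT MECs and at least 682-fold higher in CebpbΔM macrophages than in CebpbΔM MECs. It passed the quasi-likelihood (QL) test of edgeR in both comparisons (adjusted *P* = 2.90e-06 and 5.74e-07). *Spi1* entered this test only through the macrophage libraries, where it is high, so these calls were partly set by the expression filter.

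Between the macrophage genotypes, the *Spi1* level was 81.4 ± 18.7 CPM (SD, n = 4) in CebpbΔM against 29.6 ± 2.08 CPM (SD, n = 2) in WT, a log2 fold change of 1.43 (SE 0.26). The QL test of edgeR did not call it (adjusted *P* = 0.452 over 17772 genes). By *P* it ranked 11 of these 17772 genes. The likelihood ratio test of edgeR, which the study's methods name, gave an adjusted *P* of 0.00105, and DESeq2 gave 0.000247, so this call depended on the test. Over the 15 settings run, the adjusted *P* in edgeR or DESeq2 ranged from 0.000247 to 0.797 and the log2 fold change from 0.86 to 1.58.

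The macrophage marker sum was also higher in every CebpbΔM library, and the luminal marker sum was lower, while the basal marker sum was higher in CebpbΔM 4, 5 and 6 and lower in CebpbΔM 7. Relative to 1000 counts of the 10 macrophage markers, *Spi1* had 3.39 and 3.31 counts in WT 4 and 5, and 8.01, 6.50, 3.72 and 6.20 in CebpbΔM 4 to 7. On this scale, too, all CebpbΔM libraries were above both WT libraries, but CebpbΔM 6 was near them. With the libraries scaled to the macrophage markers, which was chosen after seeing the data and moved the median of all genes to -0.57, the log2 fold change of *Spi1* was 0.86 (SE 0.32, QL test of edgeR, adjusted *P* = 0.125).

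**Figure D1:**
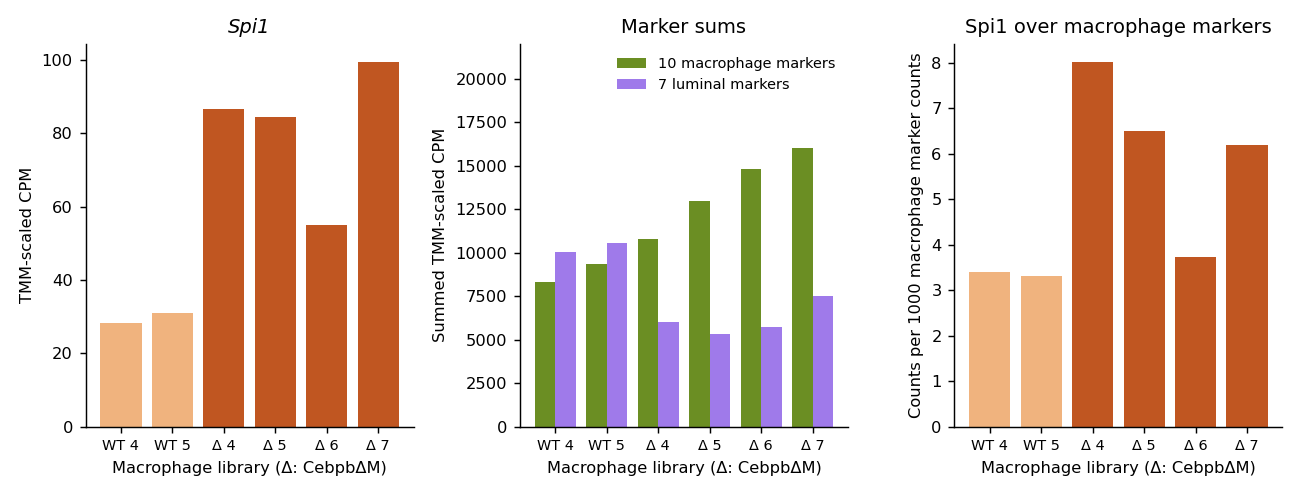
*Spi1* and marker genes in the 6 macrophage libraries, with WT 4 and 5 and CebpbΔM 4 to 7 (Δ) on the x axis. Bars show the *Spi1* level in TMM-scaled CPM (left), the summed CPM of 10 macrophage and 7 luminal markers (middle), and *Spi1* counts per 1000 macrophage marker counts (right); CebpbΔM 6 has 55.1 CPM and 3.72 counts per 1000, the lowest of the 4 CebpbΔM libraries on both scales.

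Among the genes tested over all 10 libraries, *Ly86*, *Cd33* and *Cd5l* had the profiles most like that of *Spi1*, with root mean square differences of 0.38, 0.40 and 0.42 in centred log2 CPM over 10 libraries. *Ly86* encodes the MD-1 partner of RP105, *Cd33* a myeloid sialic acid receptor and *Cd5l* a protein secreted by macrophages. These likenesses rest mainly on the gap between macrophages and MECs, which the libraries share.

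The *Irf* genes were all higher in macrophages, but they differed in how much was found in MECs. *Irf4* (ENSMUSG00000021356, chromosome 13 from 30749226 to 30766976), known from B cells, dendritic cells and alternatively activated macrophages, had 1.497 and 1.67 CPM in WT MECs and 0.935 and 1.05 CPM in CebpbΔM MECs. In macrophages it had 14.6 and 9.85 CPM in WT 4 and 5, and 19.4, 18.8, 24.5 and 29.4 CPM in CebpbΔM 4 to 7. No CebpbΔM library overlapped WT in either cell type, and *Irf4* was higher in CebpbΔM macrophages and lower in CebpbΔM MECs.

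The *Irf4* log2 fold change between genotypes was 0.89 (SE 0.29, adjusted *P* = 0.517) in macrophages and -0.65 (SE 0.47, adjusted *P* = 0.9997) in MECs by the QL test of edgeR. The difference of these effects was 1.58 (SE 0.44), which was not called by edgeR (adjusted *P* = 0.833, and no lower than 0.302 in any of the 16 settings run with edgeR or DESeq2). The MEC values rest on 23 to 41 counts per library. Relative to 1000 macrophage marker counts, *Irf4* had 1.76 and 1.05 counts in WT and 1.79, 1.45, 1.66 and 1.83 in CebpbΔM, so the macrophage genotypes overlapped on that scale.

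*Irf5* (ENSMUSG00000029771, chromosome 6 from 29526625 to 29541871) had 23.5 and 25.8 CPM in WT MECs, and both CebpbΔM MEC libraries had 22.8 CPM. In macrophages its level was 76.7 and 129 CPM in WT 4 and 5, and 93.9, 98.3, 107 and 148 CPM in CebpbΔM 4 to 7. *Irf5*, which drives inflammatory genes, overlapped between the macrophage genotypes, as WT 5 exceeded 3 of the 4 CebpbΔM libraries, and the log2 fold change was 0.10 (SE 0.27). Its exons share 411 bases with *Tnpo3* on the opposite strand, which had 1713 to 3082 counts per library. Reads were counted on the reverse strand, but the strandedness of the kit is not stated, so reads of the shared bases may be split between them. The exons of *Maf* (440 bases, with *Gm15655*) and *Runx1* (106 bases, with *Gm26626*) have such overlaps too.

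*Irf8* (ENSMUSG00000041515, chromosome 8 from 120736358 to 120756694), which is required for monocyte and dendritic cell lineages, had 18.6 and 19.1 CPM in WT MECs and 26.3 and 12.6 CPM in CebpbΔM MECs. In macrophages it had 74.6 and 66.8 CPM in WT and 75.8, 107, 116 and 95.3 CPM in CebpbΔM. CebpbΔM 4 lay only just above WT 4, and the log2 fold change of 0.45 (SE 0.20, adjusted *P* = 0.586 by the QL test of edgeR) was -0.15 when the libraries were scaled to the macrophage markers, a scaling that moved the median of all genes from 0.00 to -0.57.

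The MEC levels of *Irf5* and *Irf8* in WT were 24.0% and 26.7% of their WT macrophage levels, whereas *Irf4* was at 12.9%. The summed macrophage markers of WT MECs were at 0.404% of the WT macrophage sum, and *Spi1* was at the floor in the same libraries. Summed markers of type 1 conventional dendritic cells, which also depend on *Irf8*, were 52.2 to 68.4 CPM in WT MECs and 41.8 to 46.8 CPM in WT macrophages. That sum was mostly *Cadm1*, an adhesion molecule, at 59.2 ± 11.6 CPM in WT MECs and 34.8 ± 4.29 CPM in WT macrophages (SD, n = 2 each). The genes of the list that were called, *Flt3*, *Clec9a* and *Xcr1*, were all higher in WT macrophages, with *Flt3* at 0 in WT MECs.

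Between the macrophage genotypes, 4 summed lists of other immune cells were higher in every CebpbΔM library than in both WT libraries, as *Irf4*, *Irf8*, *Maf* and *Spi1* were. Plasmacytoid dendritic cell markers summed to 63.0 to 77.5 CPM in WT and 116 to 156 CPM in CebpbΔM, and type 2 conventional dendritic cell markers to 501 to 734 and 781 to 1155 CPM. B cell markers summed to 4.90 to 7.67 CPM in WT, with *Ms4a1*, *Pax5* and *Fcmr* at 0, and to 9.39 to 16.3 CPM in CebpbΔM. T cell markers summed to 3.31 to 5.24 CPM in WT, with *Cd3g*, *Cd8a* and *Icos* at 0, and to 8.23 to 14.8 CPM in CebpbΔM. In the order named, the median log2 fold changes of these 4 lists were 0.25, 0.12, 0.99 and 1.91, against 0.60 for the macrophage markers. Scaled to the macrophage markers they were -0.22, -0.46, 0.44 and 1.42, where the median of all genes was -0.57. Not all genes of these lists separated, as *Sirpa*, *Flt3*, *Cd79b* and *Cd3e* overlapped between genotypes. The sums for monocytes, neutrophils, type 1 conventional dendritic cells, plasma cells and mast cells overlapped too. That for natural killer cells was lower in every CebpbΔM library. The part of these cells in the differences of the 9 genes was not tested.

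*Batf3* (ENSMUSG00000026630, chromosome 1 from 191097847 to 191108945), a partner of IRF8 in type 1 dendritic cells, was a low-count member. It had 24 and 10 counts in WT MECs and 27 and 25 in CebpbΔM MECs, and did not pass the filter of over 1 CPM in at least 2 libraries for the MEC comparison. In macrophages it had 7.02 and 10.8 CPM in WT and 6.32, 8.28, 12.9 and 11.5 CPM in CebpbΔM. These genotypes overlapped, with a log2 fold change of 0.11 (SE 0.36).

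*Maf* (ENSMUSG00000055435, chromosome 8 from 115682942 to 115707794) encodes c-MAF, which restrains proliferation of mature macrophages and marks perivascular and resident populations. It had 4.17 and 3.45 CPM in WT MECs and 2.24 and 4.27 CPM in CebpbΔM MECs. Macrophages had 29.7 and 54.3 CPM in WT 4 and 5, and 54.6, 62.6, 91.1 and 80.6 CPM in CebpbΔM 4 to 7. CebpbΔM 4 was level with WT 5, so the separation of the groups was narrow. The log2 fold change was 0.76 (SE 0.30, adjusted *P* = 0.555 by the QL test of edgeR), and it ranged from 0.39 to 1.26 as each library was left out. Per 1000 macrophage marker counts the genotypes overlapped, at 3.58 and 5.79 in WT and 5.05, 4.81, 6.15 and 5.03 in CebpbΔM.

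*Runx1* (ENSMUSG00000022952, chromosome 16 from 92601466 to 92826149), which is needed for blood stem cell emergence and also acts in mammary luminal cells, ran the other way. Its level was 202 and 223 CPM in WT MECs and 272 and 229 CPM in CebpbΔM MECs. It was 94.5 and 120.2 CPM in WT macrophages and 159.9, 105, 118 and 104 CPM in CebpbΔM macrophages. CebpbΔM 4 was the highest macrophage library, and the same library had the highest summed basal epithelial markers (2555 CPM) and milk protein genes (749 CPM, against 60.3 to 121 in the other macrophage libraries), whose part in its *Runx1* level was not tested.

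*Klf4* (ENSMUSG00000003032, chromosome 4 from 55527143 to 55532466), a zinc finger factor of monocytes and of epithelia, was at like levels in all groups. It had 115 and 178 CPM in WT MECs, 130.3 and 149 CPM in CebpbΔM MECs, 105 and 173 CPM in WT macrophages and 103, 116, 173 and 144 CPM in CebpbΔM macrophages. The spread within the WT macrophages, 1.64-fold, exceeded every difference between group means.

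*Nr4a1* (ENSMUSG00000023034, chromosome 15 from 101254269 to 101274795) encodes NUR77, an orphan nuclear receptor that is induced within minutes by many stimuli and is required for patrolling monocytes. It was the most abundant member per length in every group. Its level was 1578 and 1448 CPM in WT MECs and 1556 and 1326 CPM in CebpbΔM MECs. Macrophages had 2120 and 2423 CPM in WT and 1321, 1727, 2366 and 2170 CPM in CebpbΔM. The immediate early genes, which cell isolation can induce, were also high in all libraries, with a summed level of 8 such genes of 21086 to 27162 CPM, and their part in the *Nr4a1* level was not tested.

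**Figure D2:**
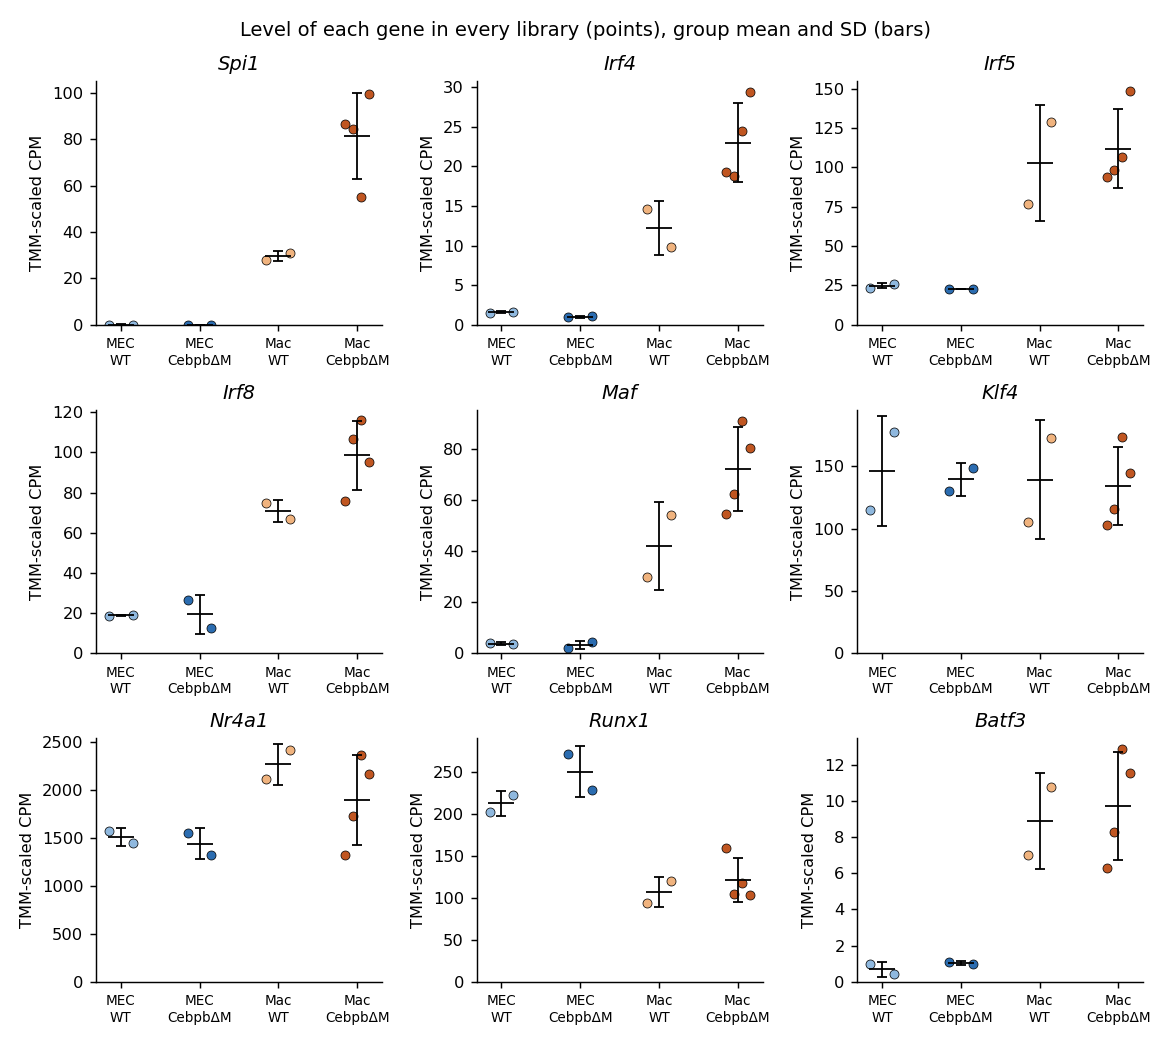
TMM-scaled CPM (y axis) of each of the 9 genes in the 10 libraries, by cell type and genotype, where points are libraries and bars are the group mean and SD. *Spi1*, *Irf4*, *Irf5*, *Irf8*, *Maf* and *Batf3* are higher in macrophages (Mac), *Runx1* is higher in MECs, and the 4 CebpbΔM macrophage libraries of *Spi1* lie between 55.1 and 99.3 CPM, above WT.

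Per length, as TMM-scaled CPM divided by exon length in kilobases (RPKM), the order of the 9 genes in WT macrophages was *Nr4a1* (647 ± 61.0 RPKM), *Klf4* (45.7 ± 15.7), *Irf5* (35.4 ± 12.7), *Spi1* (10.99 ± 0.773), *Irf8* (10.02 ± 0.786), *Runx1* (8.93 ± 1.51), *Batf3* (5.57 ± 1.65), *Maf* (5.09 ± 2.11) and *Irf4* (2.49 ± 0.684), each as mean ± SD with n = 2. The ranges of *Klf4* and *Irf5*, *Spi1* and *Irf8*, *Irf8* and *Runx1*, and *Batf3* and *Maf* overlapped, so these neighbours were not ordered beyond their spread. In CebpbΔM macrophages (n = 4) *Spi1* had 30.2 ± 6.94 RPKM and overlapped *Irf5* (38.5 ± 8.60 RPKM), while its range lay above that of *Irf8* (13.97 ± 2.46 RPKM). The per-length ratio of *Spi1* to *Irf8* was 0.987 and 1.22 in WT 4 and 5, and 2.99, 2.07, 1.24 and 2.73 in CebpbΔM 4 to 7. The lowest CebpbΔM ratio, in CebpbΔM 6, was next to that of WT 5.

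In WT MECs the order per length was *Nr4a1* (431 RPKM), *Klf4* (48.0), *Runx1* (17.7), *Irf5* (8.49), *Irf8* (2.67), *Maf* (0.462), *Batf3* (0.431), *Irf4* (0.322) and *Spi1* (0.0225). The ranges of *Maf* and *Batf3*, and of *Batf3* and *Irf4*, overlapped, so these neighbours were not ordered beyond their spread. *Nr4a1* thus led in both cell types. *Klf4* came next by its mean, but its range overlapped that of *Irf5* in macrophages. *Runx1* stood above *Irf5* in MECs and below it in macrophages. The first 5 places were the same in CebpbΔM MECs.

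**Figure D3:**
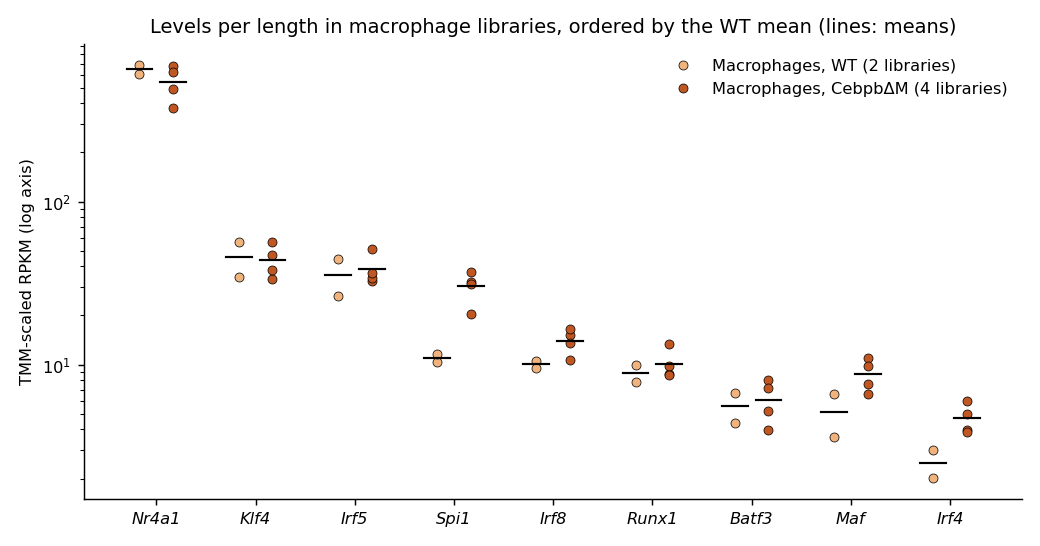
Level per length (y axis, TMM-scaled RPKM on a log axis) of the 9 genes in the macrophage libraries, ordered by the WT mean, where points are libraries and lines are group means. *Nr4a1* is highest at 647 RPKM in WT and *Irf4* lowest at 2.49, and *Spi1* is at 10.99 RPKM in WT and 30.2 in CebpbΔM.

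The comparison of macrophages with MECs of the same genotype asked which of these factors differed between the macrophage and MEC libraries. The macrophage libraries also held epithelial, endothelial, adipocyte and fibroblast markers, and the part of such cells in the differences was not tested. In WT, 7 of the 9 genes were called by the QL test of edgeR, 6 higher and 1 lower in macrophages, where 25.5% of the 18323 genes tested were called (14.8% higher and 10.7% lower). In CebpbΔM the same counts of 6 higher and 1 lower were called, against 33.7% of genes (18.9% higher and 14.7% lower). These comparisons used different libraries but shared 1 fit. *Spi1* and *Batf3* entered it only through the macrophage libraries, as they did not pass the filter in MECs.

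Besides *Spi1*, *Batf3* rose in macrophages by a log2 fold change of 3.68 in WT and 3.23 in CebpbΔM (SE 0.53 and 0.48, adjusted *P* = 0.000535 and 0.000441 by edgeR). Its WT value ranged from 3.19 to 4.43 as each library was left out. *Maf* rose by 3.46 and 4.47 (SE 0.41 in both, adjusted *P* = 0.000131 and 1.42e-05 by edgeR). *Irf4* rose by 2.95 and 4.53 (SE 0.34 and 0.35, adjusted *P* = 0.000119 and 4.43e-06 by edgeR). The rise of the other IRF genes was smaller, at 2.06 and 2.29 for *Irf5* and 1.91 and 2.34 for *Irf8*, and both were called in each genotype. The CebpbΔM value of *Irf8* ranged from 1.90 to 2.97 as each library was left out.

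*Runx1* fell by 0.99 on the log2 scale in WT (SE 0.24, adjusted *P* = 0.0124 by edgeR) and by 1.04 in CebpbΔM (SE 0.20, adjusted *P* = 0.00233 by edgeR). The WT call was lost without MEC WT 3 (adjusted *P* = 0.0748 by edgeR) and without macrophage WT 4 (adjusted *P* = 0.0853 by edgeR). *Nr4a1* had log2 fold changes of 0.59 and 0.40 (SE 0.26 and 0.23) and was not called, although without macrophage CebpbΔM 4 its adjusted *P* in edgeR was 0.0434 in WT and 0.0456 in CebpbΔM. *Klf4* had log2 fold changes of -0.07 and -0.06 (SE 0.31 and 0.27), neither of which was called.

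The comparison of CebpbΔM with WT macrophages asked whether the libraries labelled as lacking *Cebpb* changed these factors. The QL test of edgeR called none of the 9 genes and none (0%) of the 17772 genes tested at an adjusted *P* of 0.05. At an unadjusted *P* under 0.05 there were 3 of the 9 (*Spi1*, *Irf4* and *Maf*) and 1534 genes in all (8.63%). The likelihood ratio test of edgeR called 138 genes (0.777%) and DESeq2 called 201 (1.13%), and *Spi1* was the 1 gene of the set that either called.

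All CebpbΔM libraries lay above both WT libraries for 4 of the 9 genes (*Spi1*, *Irf4*, *Irf8* and *Maf*), against 10.4% of genes tested, and below them for 0 of the 9, against 8.1%. For a single gene, permuting these 6 libraries exactly can give no two-sided *P* below 0.0667. The median log2 fold change of the 9 genes was 0.16, against 0.00 over all genes. *Klf4* (-0.08), *Nr4a1* (-0.29), *Runx1* (0.16), *Irf5* (0.10) and *Batf3* (0.11) overlapped between genotypes. Per 1000 macrophage marker counts, however, *Nr4a1* had 256 and 258 counts in WT 4 and 5, and 122, 133, 159.9 and 135 in CebpbΔM 4 to 7. *Klf4* had 12.7 and 18.4 in WT and 9.51, 8.89, 11.7 and 8.998 in CebpbΔM. On that scale both were lower in every CebpbΔM library, but the scale lowers genes in general. With the libraries scaled to the markers, 2267 of 17772 genes had a log2 fold change above 0. The separation is therefore not read as particular to *Nr4a1* or *Klf4*. Scaled to the markers, where the median of all genes was -0.57, the log2 fold change was -0.90 for *Nr4a1* (SE 0.16, adjusted *P* = 0.0824 by the QL test of edgeR) and -0.67 for *Klf4* (SE 0.24, adjusted *P* = 0.117 by the same test of edgeR), and neither was called.

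Over the 4 CebpbΔM macrophage libraries, several of the genes varied together, but *Spi1* did not follow them. CebpbΔM 6 had the lowest *Spi1* level of the 4 but the highest *Irf8*, *Maf*, *Klf4*, *Nr4a1* and *Batf3* levels. CebpbΔM 4, the library with the most basal epithelial and milk protein RNA, had the lowest *Irf5*, *Irf8*, *Maf*, *Klf4*, *Nr4a1* and *Batf3* levels. Of all macrophage libraries, CebpbΔM 6 also had the highest summed endothelial (1316 CPM) and adipocyte (1106 CPM) markers and the lowest fibroblast markers (2396 CPM). CebpbΔM 4 had the lowest endothelial sum (573 CPM). The part of such cells in this shared variation was not tested. Between the WT libraries, WT 5 exceeded WT 4 by 1.83-fold for *Maf*, 1.68-fold for *Irf5* and 1.53-fold for *Batf3*, but by only 1.10-fold for *Spi1*.

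In MECs, 7 of the 9 genes passed the filter (*Spi1* and *Batf3* did not) and none was called by the QL test of edgeR, by its likelihood ratio test or by DESeq2, and none had an unadjusted *P* under 0.05, which 5.42% of genes had. The QL test called 0.051% of the 15698 genes tested, the likelihood ratio test 1.14% and DESeq2 1.03%. *Irf4* and *Irf5* were lower and *Runx1* higher in both CebpbΔM libraries than in both WT libraries, 3 of 7 genes without overlap against 28.2% of genes. Their log2 fold changes were -0.65, -0.09 and 0.25, and the median of the 7 genes was -0.05 against -0.01 over all genes.

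The difference of the genotype effect between macrophages and MECs was called for none of the 9 genes. The QL test of edgeR called 0 of 18323 genes, with 951 (5.19%) at an unadjusted *P* under 0.05, the likelihood ratio test called 53 (0.289%) and DESeq2 called 27 (0.147%). After *Irf4*, *Maf* had a difference of 1.01 (SE 0.51, adjusted *P* = 0.969 by edgeR). That of *Spi1*, 2.83 (SE 1.51), rests on MEC counts at the floor.

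**Figure D4:**
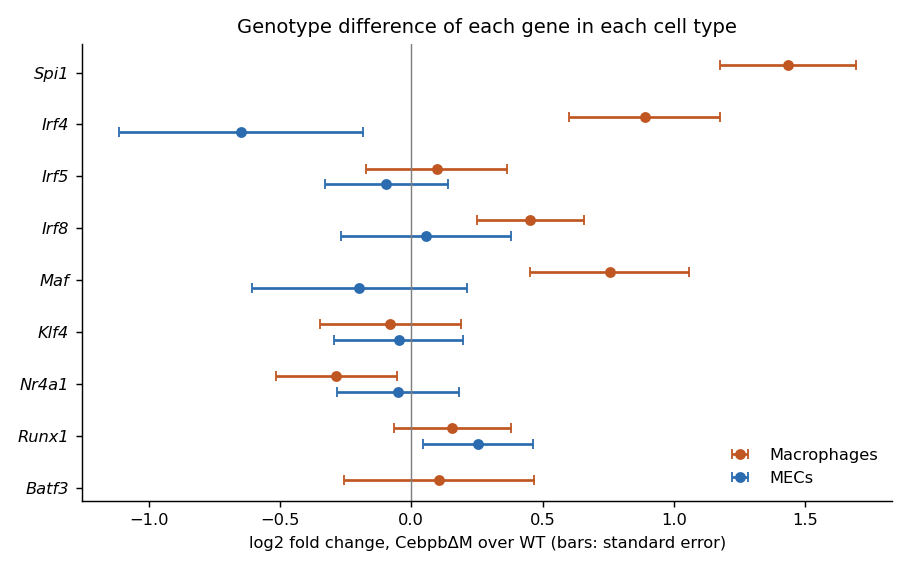
Log2 fold change of CebpbΔM over WT (x axis) for each of the 9 genes (y axis) in macrophages and in MECs, with bars for the standard error and no MEC point for *Spi1* and *Batf3*, which did not pass the filter there. *Spi1* is at 1.43 and *Irf4* at 0.89 in macrophages, *Irf4* is at -0.65 in MECs, and none of the values was called by the QL test of edgeR.

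Genes known to be bound and activated by PU.1 in macrophages were mostly higher in macrophages than in MECs, as *Spi1* was. Of 20 such genes, 18 were called higher in WT macrophages than in WT MECs and all 20 in CebpbΔM, with none lower, where 14.8% and 18.9% of all genes were called higher. Of the 20, 8 passed the filter in the MEC comparison. The others entered the test through the macrophage libraries, where they are high. These counts were therefore partly set by the filter and do not test a link to *Spi1*. *Lyz2*, which encodes lysozyme, had 3.67 ± 0.383 CPM in WT MECs and 4277 ± 498 CPM in WT macrophages (SD, n = 2 each). *Csf1r*, the receptor for macrophage colony-stimulating factor, had 9.50 ± 1.03 and 924 ± 264 CPM, and *Cd68*, a lysosomal glycoprotein, had 7.54 ± 0.366 and 382 ± 1.76 CPM.

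Between the macrophage genotypes none of the 20 PU.1 targets was called by the QL test of edgeR, and 9 had an unadjusted *P* under 0.05, as 8.63% of all genes had. The log2 fold change was above 0 for 18 of the 20, and for 8954 of all 17772 genes, with a median of 0.47 against 0.00. Of the 20, 4 are also among the 10 macrophage markers, and the median of the other 16 was 0.46. The macrophage markers themselves had a median of 0.60, all 10 above 0. Scaled to those markers, the median of the targets was -0.14 with 7 of 20 above 0, where the median of all genes was -0.57. The widest values were 1.21 for *Btk*, a kinase of B cell and Fc receptor signalling (SE 0.34), and -0.52 for *Msr1*, a scavenger receptor (SE 0.28).

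**Figure D5:**
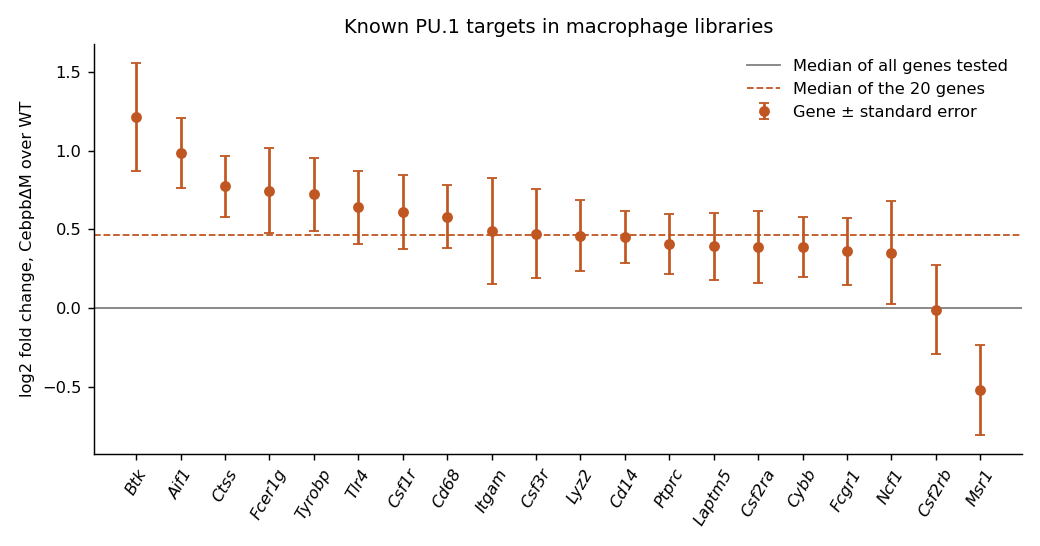
Log2 fold change of CebpbΔM over WT in macrophages (y axis) for the 20 known PU.1 targets (x axis), where points are genes, bars are standard errors, the dashed line is the median of the 20 and the solid line that of all genes tested. The values run from 1.21 for *Btk* to -0.52 for *Msr1*, and 18 of 20 are above 0 with a median of 0.47.

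Relatives of the 9 genes were more mixed. Among the other IRF genes, *Irf1* (0.99) and *Irf7* (1.199), both interferon-responsive, rose in WT macrophages over WT MECs. Among 16 tested genes of the other families, 8 were called, 5 higher and 3 lower, where 14.8% of all genes were called higher and 10.7% lower.

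*Spic*, an ETS factor of red pulp and bone marrow macrophages and a close relative of *Spi1*, had 0 counts in MECs. In macrophages it had 0.908 ± 0.206 CPM in WT (n = 2) and 4.72 ± 1.51 CPM in CebpbΔM (n = 4), with a log2 fold change of 2.35 (SE 0.53, adjusted *P* = 0.452 by the QL test of edgeR). Between the macrophage genotypes none of the other IRF genes or family relatives was called by that test, and their median log2 fold changes were 0.08 and 0.17.

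Of 15 tested factors of mononuclear phagocytes outside these families, 8 rose and 1 fell in WT macrophages over WT MECs, read against the same 14.8% and 10.7%. *Zeb2*, which maintains tissue macrophage identity, had 7.98 ± 1.98 CPM in WT MECs and 129 ± 8.58 CPM in WT macrophages (log2 fold change 4.01). *Ikzf1* (3.73), which encodes Ikaros, also rose, and *Bhlhe40* (-1.61) fell, from 1067 ± 1.84 to 348 ± 18.3 CPM. Of 8 immediate early genes, the family to which *Nr4a1* belongs by its induction, *Egr1* (1.24) and *Dusp1* (1.07) rose and *Atf3* (-1.09) fell. The other 5 were not called, read against the same 14.8% and 10.7%. In CebpbΔM, 4 of the 8 were called, *Egr1* (0.89) and *Junb* (0.71) higher and *Atf3* (-0.69) and *Fosb* (-0.80) lower. There 18.9% of all genes were called higher and 14.7% lower.

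The genes with profiles most like the other members over the 10 libraries were *Gna15* for *Irf4* (root mean square difference 0.22), *Ube2l6* for *Irf5* (0.15), *Il10rb* for *Irf8* (0.18) and *Gas7* for *Batf3* (0.21). For *Maf* they were *Gm10602* and *Gbp9* (both 0.23), for *Klf4* *Sergef* (0.09), for *Nr4a1* *Bnip3* (0.11) and for *Runx1* *1700088E04Rik* (0.13).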

How the data were processed

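The authors deposited raw counts per gene for 4 MEC and 6 macrophage libraries, which they made from low-input RNA-seq reads with Trimmomatic, HISAT2 and featureCounts 1.6.2 (GRCm38, Ensembl annotation, reverse-strand counting). The counts held no columns for MEC libraries numbered 2, which were therefore not analysed. Total counts were 16935000 to 27008166 per library, and 3 counts were taken as the floor. Groups came from the labels.

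Genes of at least 300 nt with over 1 CPM in at least 2 libraries were tested with edgeR 4.0.16 (limma 3.58.1, R 4.3.3) using TMM scaling, glmQLFTest and Benjamini-Hochberg adjustment over all genes tested, at 0.05. Each genotype comparison used the libraries of its cell type, and comparisons of cell types and their interaction used all 10. Scripts were tested on simulated data. Alternatives were the likelihood ratio test, DESeq2 1.42.0, RLE scaling, other filters, a replicate block, leaving out each library and, chosen after seeing the data, scaling to macrophage markers. Named were the 9 genes, *Cebpb*, up to 4 called genes with the smallest *P* per list and comparison, and the 3 nearest profiles per gene (log2 CPM, prior count 2, centred over 10 libraries). *Btk*, *Msr1*, *Cadm1*, marker genes at 0 (*Adgre1*, *Ms4a1*, *Pax5*, *Cd3g*, *Cd8a*) and genes that overlap others' exons were named outside this rule after their values were seen. The genes and lists were chosen with earlier results of these data known. Some list genes are not reported here. Figures used matplotlib 3.10.9.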

Additional observations from a re-analysis of the deposited data

How the results depend on the processing

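Between the macrophage genotypes the number of the 9 genes called was 0 by the QL test and 1 (*Spi1*) by both the likelihood ratio test and DESeq2. It stayed 0 as each library was left out, as did the number in MECs and for the interaction. It was 6 to 8 for WT macrophages against WT MECs, and 7 to 8 for CebpbΔM. Scaled to the macrophage markers, which was chosen after seeing the data, log2 fold changes between macrophage genotypes turned to -0.49 for *Irf5*, -0.15 for *Irf8*, -0.38 for *Runx1* and -0.50 for *Batf3*. This scaling lowers genes in general, with the median of all genes at -0.57, and these 4 genes were above that median. The interaction of *Klf4* turned to -0.0019 without a filter, and the cause was not tested.

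Leaving out each library moved these log2 fold changes through 0. In macrophages the ranges were -0.23 to 0.52 for *Irf5*, -0.40 to 0.32 for *Klf4*, -0.0081 to 0.34 for *Runx1* and -0.17 to 0.45 for *Batf3*. In MECs they were -0.17 to 0.0015 for *Irf5*, -0.54 to 0.47 for *Irf8*, -0.77 to 0.21 for *Maf*, -0.34 to 0.33 for *Klf4* and -0.15 to 0.034 for *Nr4a1*. For *Klf4* between cell types they were -0.43 to 0.29 in WT and -0.20 to 0.058 in CebpbΔM. For the interaction they were -0.67 to 4.96 for *Spi1*, -0.12 to 0.62 for *Irf5*, -0.0013 to 1.06 for *Irf8*, -0.34 to 0.38 for *Klf4*, -0.25 to 0.094 for *Runx1* and -1.20 to 0.041 for *Batf3*.

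Replicate numbers are shared between genotypes, and deviations of same-numbered libraries correlated weakly (r = 0.106 in MECs, 0.129 and -0.0865 in macrophages). In a group of 2 libraries these deviations mirror each other, so the correlations cannot decide whether libraries were paired. The main fits took no pairing. Numbers 6 and 7 occur only in CebpbΔM macrophages, so a block on the number takes the macrophage effect from libraries 4 and 5 only. With the replicate number as a block, 12 of 17772 genes were called in macrophages and 205 of 15698 in MECs. Without it 0 and 8 were called, and none of the 9 genes was called in either case. *Spi1* then had a log2 fold change of 1.51 (adjusted *P* = 0.0675 by edgeR) and *Nr4a1* of -0.61 in macrophages (adjusted *P* = 0.216 by edgeR), and *Irf5* (-0.073) and *Batf3* (-0.29) in macrophages and *Irf8* (-0.026) in MECs changed sign. In MECs, the number of genes called ranged from 2 to 337 as each library was left out. The low counts of *Spi1* in MECs and of *Cebpb* in all libraries limit the precision of their values.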
